A study of Mus musculus with 7 samples.

Results

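The cells described here are those that the authors annotated "CD8+ T cells (Naive/early activation)" in mouse brains bearing CT-2A glioma, a transplantable mouse glioma line. They were taken by that exact name from the deposited cell table, which gave 1502 of 28644 cells under 23 annotations. The annotations of precursor-exhausted CD8 T cells (5076 cells) and exhausted CD8 T cells (1549 cells) served for comparison. The sample of each mouse was 1 droplet library of live cells sorted for CD45, CD11b or both from the tumour-bearing hemisphere. All 7 mice carried floxed alleles of Siglece, which encodes a sialic acid-binding inhibitory receptor of myeloid cells. The 4 Siglece KO mice (KO) also carried Sall1CreERT2, a tamoxifen-activated Cre recombinase expressed from Sall1, a gene that marks microglia in the brain. The 3 control mice (WT) lacked the Cre. The labels trace the Cre allele to a B6;129 background and the floxed allele to B6.129P2. Mice of both genotypes were 8 to 12 weeks old at injection of 50000 tumour cells and received 2.5 mg tamoxifen per injection, daily from day 7 to day 21 and every other day after that. The annotated cells numbered 87, 311, 260 and 377 in KO mice 1 to 4 and 82, 286 and 99 in WT mice 1 to 3.

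Naive CD8 T cells circulate between blood and lymphoid organs, guided by the chemokine receptor Ccr7 and the sphingosine phosphate receptor S1pr1, under the transcription factors Tcf7, Lef1 and Klf2. After antigen contact these genes are turned down, and cells in tumours that keep receiving antigen acquire inhibitory receptors such as Pdcd1, Lag3 and Havcr2, the state called exhaustion. Precursor-exhausted cells are commonly described as a Tcf7-expressing, self-renewing form of that state. Type I interferon acts on T cells through the receptor chains Ifnar1 and Ifnar2 and induces a large group of antiviral genes.

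The libraries gave 310838 to 1406489 UMIs (unique molecular identifiers, 1 per captured transcript) in these cells, with a median of 2753 to 4849 UMIs and 1315 to 1918 genes per cell. Precursor-exhausted cells had medians of 4268 to 10561 UMIs and exhausted cells 3775 to 6254, so shares of cells with a UMI are given after every cell was thinned to 2000 UMIs. This kept 1335 of the 1502 cells, 5022 precursor-exhausted cells and 1531 exhausted cells. WT mouse 1 had 21 precursor-exhausted cells, and its 9 exhausted cells were not used. KO mice 1 and 2 and WT mouse 3 were female by Xist, the others male. A total of 460 cell barcodes occurred in more than 1 library, on 926 cells, of which 48 carried the annotation described here. Siglece UMIs in microglia numbered 2, 1, 0 and 0 in KO mice, out of 186615, 51086, 36904 and 180054 UMIs. In WT mice they numbered 20, 19 and 7, out of larger totals of 553957, 414009 and 377244 UMIs. In the annotated CD8 cells Siglece UMIs numbered 1, 2, 5 and 4 in KO mice and 0, 2 and 0 in WT mice. These were out of the 310838 to 1406489 UMIs of these cells.

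The markers matched the name in part. This is a description and no test, because the name was assigned from the expression of these cells. Among the 23 annotations, the mean level over mice gave these cells rank 2 for Lef1 (89.4 ± 23.9 CPM, SD, n = 7) and rank 2 for Tcf7 (145 ± 20.8 CPM), in both cases below the naive or early-activation CD4 annotation. CPM is the UMI count of a gene scaled to the total of all genes in the same cells, so that libraries of different depth can be compared. The rank was 8 for Ccr7 (109 ± 71.3 CPM). For Cd8a, which encodes the alpha chain of the CD8 co-receptor, the rank was 4, at 389 ± 84.8 CPM, below precursor-exhausted cells at 982 ± 154 CPM and exhausted cells at 1020 ± 213 CPM (n = 6). On the scale used between annotations (CPM with TMM scaling, which evens out differences in composition between libraries), the median Cd8a difference from precursor-exhausted cells of the same mouse was -1.36 log2, in the same direction in 7 of 7 mice. Over 15 alternative settings it ran from -1.50 to -0.81, so it did not always reach 2-fold.

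After thinning, 40.6 ± 5.77% of the annotated cells (mean of 7 mice ± SD) had a Cd8a UMI, against 79.1 ± 8.96% of precursor-exhausted cells. Without thinning the pooled shares were 48.3% and 94.3%. B cells, which lack Cd8a, had a UMI in 1.25 ± 2.35% of thinned cells, so the share in the annotated cells was above that background. Lef1 was found in 15.4 ± 4.33% of the annotated cells against 2.28 ± 1.64% of precursor-exhausted cells and 0.379 ± 0.489% of B cells. Tcf7 was found in 22.1 ± 4.01% against 1.76 ± 1.51%, the latter near the 1.68 ± 1.74% of B cells. Ccr7 was found in 9.63 ± 4.40% against 3.00 ± 1.35%. Cd8a, Lef1 and Ccr7, the markers given for this cell type, were thus each detected in fewer than 1 of 2 cells at this depth. The cells are called below the annotated cells.

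**Figure D1:**
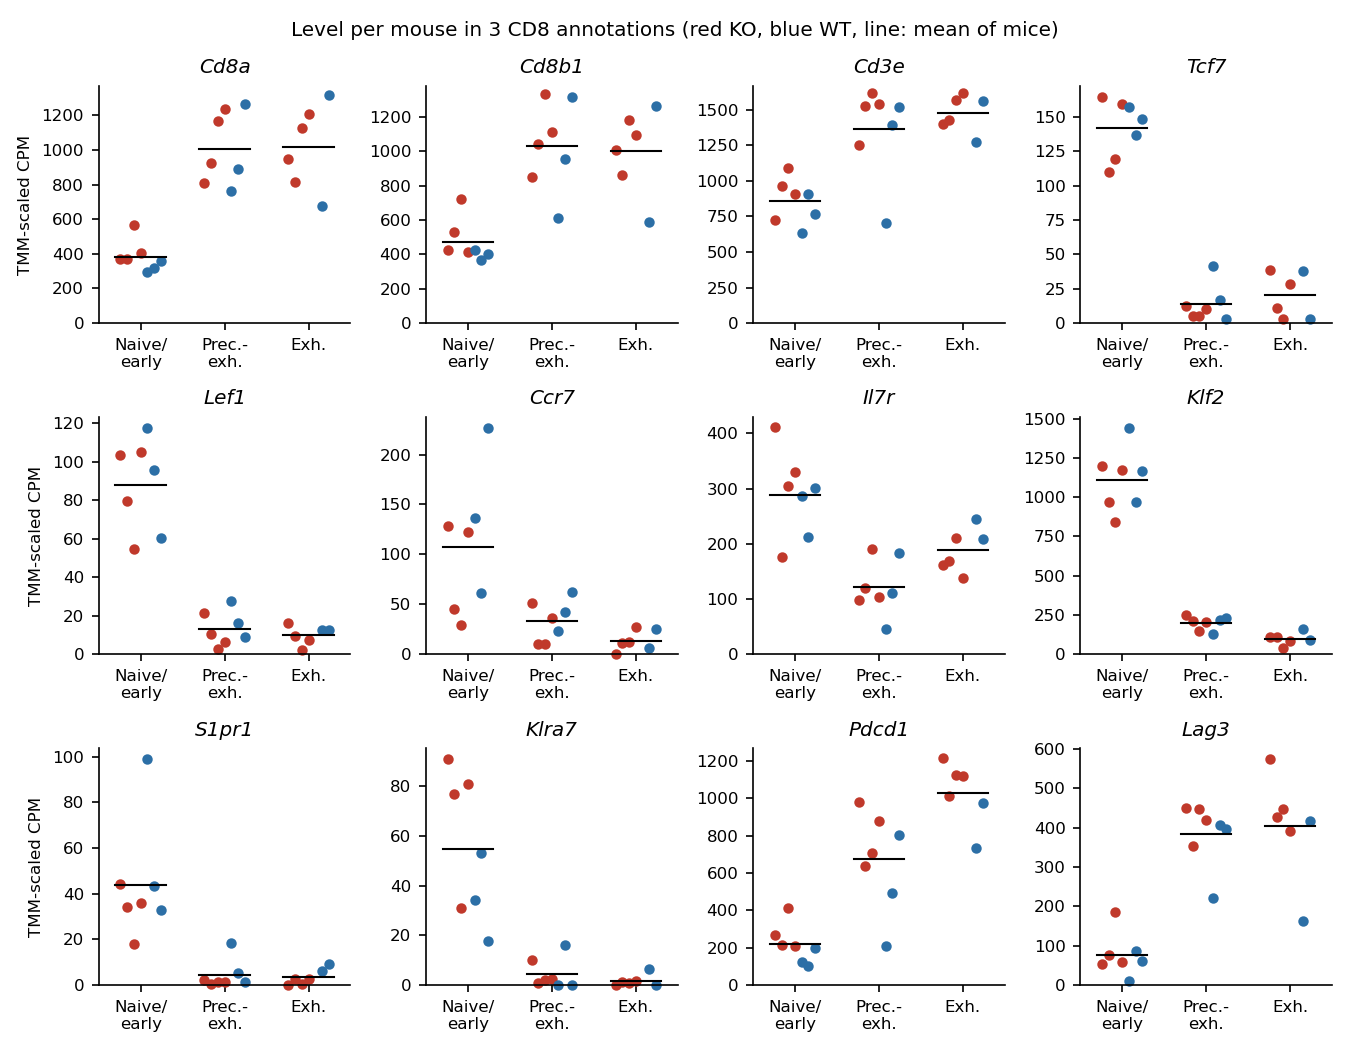
TMM-scaled CPM (y axis, linear, from 0) of 12 genes in each mouse for the annotated cells (Naive/early), precursor-exhausted and exhausted CD8 cells (x axis). Red points are KO mice, blue points WT mice, and the line is the mean. In every mouse, Tcf7, Lef1, Il7r and Klf2 lie higher in the annotated than in precursor-exhausted cells, and Cd8a, Cd8b1, Pdcd1 and Lag3 lower.

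CD8 transcripts were found in little more than 1 of 2 annotated cells. Thinned to 2000 UMIs, 52.3% had a UMI of Cd8a or Cd8b1 and none of Cd4, with a range over mice of 40.5 to 63.8%. Cells with Cd4 and without Cd8 made up 8.31% (4.09 to 13.4%), cells with both 1.05%, and cells with neither 38.4% (25.8 to 50%). The share with neither was 3.27% in precursor-exhausted cells and 3.46% in exhausted cells at the same depth, pooled over mice, and in exhausted cells it ran from 0.862 to 22.2% by mouse. It was higher in the annotated cells of every mouse than in the precursor-exhausted cells of any mouse, where it reached 9.52%. In the naive or early-activation CD4 annotation, where 36.4% of thinned cells had a Cd4 UMI, it was 47.1% (34.3 to 65.9% by mouse). A large share with neither was thus not particular to the annotated cells. How many of these were CD4 cells without a detected Cd4 UMI was not tested. In the annotated cells, KO and WT mice overlapped in all 4 categories.

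**Figure D2:**
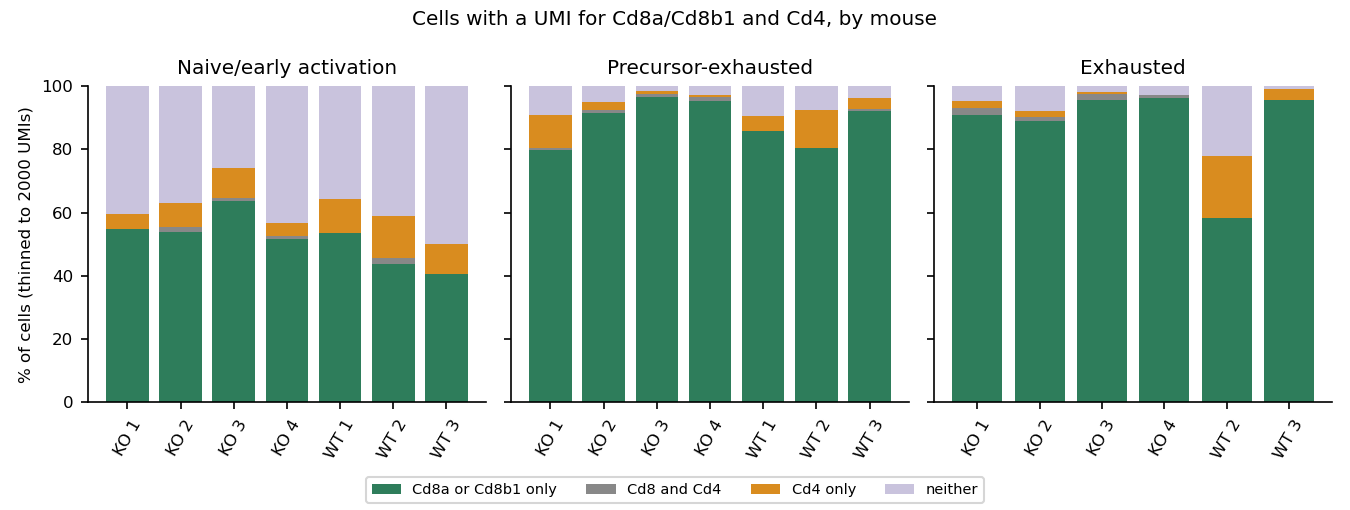
Stacked bars from 0 to 100% show, for each mouse (x axis), the share of cells thinned to 2000 UMIs (y axis) with a UMI of Cd8a or Cd8b1 only, of Cd8 and Cd4, of Cd4 only, or of neither. The neither share runs from 25.8 to 50% in the annotated cells and from 1.68 to 9.52% in precursor-exhausted cells.

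The 512 annotated cells with neither co-receptor differed from the 698 cells with Cd8 only in genes that were looked up after seeing the data. Values here are CPM of the pooled thinned cells, given with no test because depth and chance detection also sort cells into these categories. Some genes of NK and innate-like lymphocytes were higher in the cells with neither, in all 7 mice, and others were not. Fcer1g, a signalling adaptor of Fc and NK receptors, was at 729 against 188 CPM. Klrb1c, which encodes NK1.1, was at 143 against 21.5 CPM, and Ncr1, the NK receptor NKp46, at 51.8 against 2.15 CPM. Trdc, the constant segment of the delta T cell receptor chain, was at 36.1 against 5.73 CPM. The chemokine Xcl1 was at 557 against 148 CPM, and the transcription factor Ikzf2 at 135 against 47.3 CPM. The NK and cytotoxic genes Nkg7 (1164 against 1734 CPM), Gzmb (676 against 1011 CPM) and Ccl5 (4378 against 7679 CPM) were lower in the cells with neither in all 7 mice, and Eomes (28.3 against 62.3 CPM) in 6 of 7. Klrd1, an NK receptor chain, was at 337 against 365 CPM. Cd40lg, a marker of CD4 T cells, was at 37.1 against 1.43 CPM and higher in 6 of 7 mice. Cd3e, a T cell receptor subunit, was lower in all 7 mice but still present, at 722 against 1062 CPM. Lef1 (104 against 79.5 CPM) and Tcf7 (176 against 119 CPM) were on both sides of the division, as was Ccr7 (57.6 against 84.5 CPM).

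Some receptors of the Ly49 family, which inhibit NK cells and some CD8 T cells on binding MHC class I, followed the same division. Klra1 was higher in the cells with neither in 7 of 7 mice, and Klra6, Klra7 and Klra9 in 6 of 7. Klra5 was higher there in only 3 of 7 mice, at 32.2 against 17.9 CPM pooled. At least 1 UMI of Klra1, Klra6, Klra7 or Klra9 was found in 27.0% of the annotated cells with neither co-receptor and in 7.74% of those with Cd8 only. It was found in 1.80% of those with Cd4 only, 0.797% of precursor-exhausted cells and 0.653% of exhausted cells. In all annotated cells the share was 22.6, 16.3, 7.50 and 19.6% in KO mice 1 to 4 and 11.0, 11.5 and 13.1% in WT mice 1 to 3. KO mouse 3 was the lowest of all, and the genotypes overlapped. Proliferating CD8 cells and NK cells were not thinned, so mean CPM over mice is given for them. Klra7 was at 55.4 ± 28.2 CPM in the annotated cells, 49.7 ± 44.4 in proliferating CD8 cells (n = 6) and 330 ± 66.1 in NK cells. In the same order Klra1 was at 47.5, 13.0 and 63.6 CPM, Klra6 at 19.0, 6.63 and 14.3, and Klra9 at 22.7, 5.60 and 94.9. These receptors were thus not particular to the annotated cells. Ly49 genes are close copies of each other, so reads can be split among them. Of the UMIs of Klra1, Klra6, Klra7 and Klra9, however, 0 to 3.16% were in values that were not whole.

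Across genes, the annotated cells were set against the 2 other annotations within each mouse. A gene counts as higher or lower here when its median difference over mice was at least 2-fold and its sign was the same in every mouse. No test is given, because the names were assigned from the expression of these cells. Against precursor-exhausted cells 253 genes were higher (2.98% of 8489 compared) and 199 lower (2.34%) over 7 mice. Against exhausted cells 237 were higher (2.8% of 8465) and 127 lower (1.5%) over 6 mice. Of the higher genes, 145 stood in both lists, 57.3% of the first and 61.2% of the second. Of the lower genes, 67 stood in both, 33.7% and 52.8%. Both comparisons share the annotated cells. Restricting all 3 annotations to cells with Cd8 and without Cd4 UMIs turned the balance: 175 genes were then higher and 239 lower against precursor-exhausted cells, and 165 and 167 against exhausted cells.

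The largest differences upward against precursor-exhausted cells were in Klra1, Pde2a, Klra7, Klra9, S1pr1, Ncr1, Rbpms, Klf3, Tcf7 and Klra6. Klra1 was at 103, 58.5, 6.34 and 38.2 TMM-scaled CPM in KO mice and 21.6, 24.6 and 72.9 in WT mice, against 0 to 7.48 in precursor-exhausted cells. Its median difference was 4.79 on the log2 scale (SD 1.79, n = 7), and it was 3.00 with Cd8-positive, Cd4-negative cells alone. Klra7 differed by 4.51 from precursor-exhausted and 4.11 from exhausted cells, by 3.55 and 2.93 with those cells alone, and by 1.87 and 1.71 without cells holding other-lineage UMIs. KO mouse 3 stood below the others. S1pr1, which lets T cells leave tissue, was at 44.0 ± 25.7 against 4.31 ± 6.38 TMM-scaled CPM, a median difference of 3.94, or 2.81 without cells holding other-lineage UMIs. Pde2a, a phosphodiesterase that breaks down cyclic nucleotides, was at 41.4 ± 21.7 against 1.82 ± 2.24, and Klf3, a repressor of the Klf family, at 93.8 ± 27.6 against 7.91 ± 7.00. For Pde2a, 32.5% of the UMIs were in values that were not whole, which leaves its count uncertain.

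The largest differences downward against precursor-exhausted cells were in Gzmf, Clec10a, Adgrg1, Klrh1, Slc17a6, Gldc, Rgs8, Birc5, Nrn1 and Mt2. Gzmf, a granzyme gene, differed by -4.64 (SD 2.48), and its level in precursor-exhausted cells varied from mouse to mouse, 618 ± 973 TMM-scaled CPM. Adgrg1, an adhesion receptor of cytotoxic lymphocytes, was at 10.5 ± 18.5 against 59.9 ± 27.3, and the lectin-like receptor Klrh1 at 10.2 ± 9.20 against 153 ± 74.1. Mt2, a metallothionein, was at 7.13 ± 2.65 against 44.7 ± 30.5. Clec10a, a lectin of myeloid cells, was low in both, at 1.06 ± 1.16 against 23.2 ± 23.2.

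Against exhausted cells the leading higher genes were Hspa1b, Klra7, Klra1, Nsg2, Rbpms, Pde2a, Atp1b1, Klf2 and Hspa1a. Klf2, a regulator of T cell trafficking and quiescence, was at 1080 ± 148 against 96.8 ± 38.7 TMM-scaled CPM (n = 6), a median difference of 3.58. The heat shock gene Hspa1b was at 3768 ± 869 against 211 ± 65.7. Its near-identical neighbour Hspa1a shares reads with it, and 85.7% of the Hspa1b UMIs were in values that were not whole, so the 2 genes cannot be separated. The 10 leading lower genes were Gzmf, Dusp14, Klrh1, Adgrg1, Hilpda, Ifitm1, Lag3, Gldc, Myo10 and Slc16a11. Hilpda, a hypoxia-induced lipid droplet protein, was at 68.0 ± 21.7 against 416 ± 105, and Dusp14, a phosphatase acting on signalling kinases, at 6.54 ± 3.14 against 63.2 ± 36.4.

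Genes of the naive state were higher as a group. Of 17 members, 11 were higher and 0 lower against precursor-exhausted cells (2.98% and 2.34% of all genes), with a median of 1.73 log2 where all genes had -0.10. Against exhausted cells 10 were higher and 0 lower (2.8% and 1.5% of all genes), with a median of 1.35 where all genes had -0.00048. Tcf7 was at 165, 110, 120 and 159 TMM-scaled CPM in KO mice and 158, 137 and 148 in WT mice, against 3.09 to 41.2 in precursor-exhausted cells. Lef1 was at 103, 79.7, 54.4 and 105 in KO mice and 117, 95.5 and 60.3 in WT mice, against 2.63 to 27.5. No mouse overlapped for either gene. Il7r, the receptor for the survival cytokine IL-7, was higher in every mouse, with a median difference of 0.93 log2, short of the 2-fold limit (289 ± 77.2 against 122 ± 50.4).

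Ccr7 varied between mice. It was at 129, 45.4, 29.0 and 123 TMM-scaled CPM in KO mice and 136, 61.4 and 226 in WT mice, against 51.6, 9.73, 10.4 and 36.5 and 22.9, 41.7 and 62.2 in precursor-exhausted cells. Each mouse was higher in the annotated cells, by a median of 1.73, although the ranges overlapped between mice. Of 16 recirculation genes compared, 7 were higher and 1 lower against precursor-exhausted cells (2.98% and 2.34% of all genes), 6 and 0 against exhausted cells (2.8% and 1.5%), and the others did not pass. The integrin Itgb7 was at 169 ± 45.6 against 49.1 ± 38.5 and the chemokine receptor Cxcr4 at 93.7 ± 21.3 against 16.2 ± 7.00. The exception, Cxcr6, which retains T cells in tissue, was lower, at 181 ± 68.4 against 426 ± 91.3.

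Genes that define precursor-exhausted cells elsewhere did not stand together. Tcf7, Slamf6 (27.0 ± 15.8 against 7.18 ± 4.92) and Id3 (119 ± 28.5 against 18.2 ± 11.0) were higher in the annotated cells than in the cells the authors named precursor-exhausted. Tox, which sustains exhaustion, was lower, at 56.7 ± 49.0 against 172 ± 100, as were Pdcd1 and the surface glycoprotein gene Cd200. Of the 11 members of that list compared, 3 were higher and 3 lower (2.98% and 2.34% of all genes). Against exhausted cells 5 were higher and 3 lower (2.8% and 1.5% of all genes).

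Inhibitory receptors and exhaustion genes were lower in 8 of 13 members against each annotation (2.34% of all genes against precursor-exhausted and 1.5% against exhausted cells), with 0 higher. Pdcd1, which encodes PD-1, was at 266, 212, 410 and 206 TMM-scaled CPM in KO mice and 124, 104 and 196 in WT mice, against 980, 636, 709 and 876 and 211, 495 and 802 in precursor-exhausted cells. WT mouse 1, with 21 precursor-exhausted cells, had the lowest of the latter values, and the median difference was -1.88. Lag3 was at 75.4 ± 54.4 against 384 ± 79.6, Havcr2 at 30.9 ± 18.2 against 125 ± 53.5, and Tigit at 241 ± 70.3 against 449 ± 86.2. In single thinned cells the median sum over the list was 2 UMIs in the annotated cells, 6 in precursor-exhausted and 9 in exhausted cells. No UMI of the list was found in 25.2% of the annotated cells and 1.35% of the precursor-exhausted cells. The share that free RNA gives for this sum was not measured.

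Few cytotoxic genes passed. Of 16 members compared, 1 was higher and 2 lower against precursor-exhausted cells (2.98% and 2.34% of all genes). Prf1, the pore-forming perforin, was at 41.8 ± 13.9 against 235 ± 76.6 and Cst7, an inhibitor of granzyme-activating cathepsins, at 127 ± 44.9 against 341 ± 110, were lower, and the granzyme gene Gzmm, at 10.4 ± 12.6 against 0.889 ± 1.14, was higher. Gzmb was at 812 ± 142 against 1185 ± 745, without a common direction (4 of 7 mice lower). Ccl5, a chemokine of antigen-experienced T cells, was abundant in the annotated cells, at 5655 ± 1555 against 3597 ± 1673. Early activation genes also varied: 0 of 17 were higher and 3 lower against precursor-exhausted cells (2.98% and 2.34% of all genes), among them Tnfrsf9, a costimulatory receptor, at 86.3 ± 20.4 against 486 ± 168. Cd69, an early activation antigen, was at 610 ± 67.3 against 345 ± 94.6, above in every mouse with a median difference of 0.76 log2, short of the 2-fold limit. Against exhausted cells 3 of 17 early activation genes were higher and 6 lower (2.8% and 1.5% of all genes). The higher ones were Myc (156 ± 41.2 against 45.4 ± 15.7), Cd69 and Xcl1. Nr4a2, induced by antigen receptor signals, was among the lower ones (161 ± 53.4 against 563 ± 216).

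The memory list had 2 of 14 members higher in each comparison (2.98% and 2.8% of all genes) and 0 lower, with medians of -0.11 and -0.17 log2. Ly6c2, a surface antigen of memory and interferon-exposed T cells, was at 1698 ± 569 against 623 ± 224 in precursor-exhausted cells, and Cxcr3, a chemokine receptor of effector and memory cells, at 97.3 ± 19.6 against 39.6 ± 12.0. Eomes, a T-box factor of memory and NK cells, was higher than in exhausted cells, at 47.1 ± 18.2 against 13.3 ± 11.4. In single thinned cells the memory list summed to a median of 20 UMIs in the annotated cells, 20 in precursor-exhausted and 22 in exhausted cells, and 8 in naive or early-activation CD4 cells. Among 19 cytokine receptors 3 were higher and 1 lower against precursor-exhausted cells (2.98% and 2.34% of all genes), the latter Il2ra, the high-affinity IL-2 receptor chain (29.1 ± 12.3 against 87.5 ± 37.6). Cd7, a costimulatory antigen of T and NK cells, was at 339 ± 128 against 74.6 ± 34.4, and Icos, a costimulatory receptor of activated T cells, was lower than in exhausted cells, at 183 ± 19.0 against 485 ± 92.5.

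Some proliferation and glycolysis genes were lower than in precursor-exhausted cells. Of 20 proliferation genes 6 were lower against these (2.34% of all genes), with Stmn1, a tubulin regulator, at 33.8 ± 15.1 against 133 ± 76.0, while 0 of 15 passed in either direction against exhausted cells. Of 14 glycolysis genes 4 were lower against precursor-exhausted cells, with Pgk1, which makes ATP in glycolysis, at 110 ± 24.8 against 366 ± 126, and 0 passed against exhausted cells. The exhausted comparison had fewer mice and genes, and whether the 2 contrasts differ was not tested. Among dissociation stress genes 0 of 15 passed against precursor-exhausted cells and 8 were higher against exhausted cells (2.8% of all genes). Dnajb1, a heat shock co-chaperone, was at 3738 ± 976 against 510 ± 161 in exhausted cells. How far tissue handling entered these differences was not tested.

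The interferon response list was higher in the annotated cells as a group. Of 43 members, 31 were higher and 0 lower against precursor-exhausted cells, with a median of 1.48 (2.98% of all genes were higher, and their median was -0.10). Of 42 compared, 23 were higher and 0 lower against exhausted cells, with a median of 1.26 (2.8% and -0.00048). Isg15, a ubiquitin-like antiviral protein, was at 404 ± 150 against 75.2 ± 28.4 TMM-scaled CPM, a median difference of 2.26. Ifit1, which binds viral RNA, was at 140 ± 73.9 against 13.1 ± 8.20, a difference of 3.05, which was 1.72 without cells holding other-lineage UMIs. By mean level among the 23 annotations, the annotated cells had rank 1 for Ifit1 (143 ± 77.3 CPM), 5 for Isg15, 12 for Bst2 and 13 for Iigp1. The receptor gene Ifnar1 was nearly level, at 95.1 ± 14.2 against 82.2 ± 7.60. The MHC class I presentation list, part of which interferon also induces, had 0 of 17 members passing in either direction against both annotations.

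Markers of other cell types were compared in the same way. Of the NK list, Ncr1 and Klrb1c were higher than in precursor-exhausted cells and Klre1 was lower (63.7 ± 12.2 against 168 ± 50.6 TMM-scaled CPM). The summed level of its 5 genes was 106 to 249 CPM in the annotated cells and 116 to 236 CPM in precursor-exhausted cells, lower in 4 of 7 mice, with each gene found. The 4 gamma-delta T cell markers summed to 22.5 to 75.5 CPM against 4.50 to 21.2 CPM, and the 4 CD4 markers to 51.0 to 213 CPM against 22.9 to 150 CPM. The 9 myeloid markers summed to 878 to 2433 CPM against 554 to 1540 CPM. The 2 members higher by 2-fold (2.98% of all genes were), Fcer1g and Tyrobp, are also adaptors of NK receptors. The part of these marker lists in the differences between annotations was not tested, apart from the restriction to Cd8-positive cells above.

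**Figure D3:**
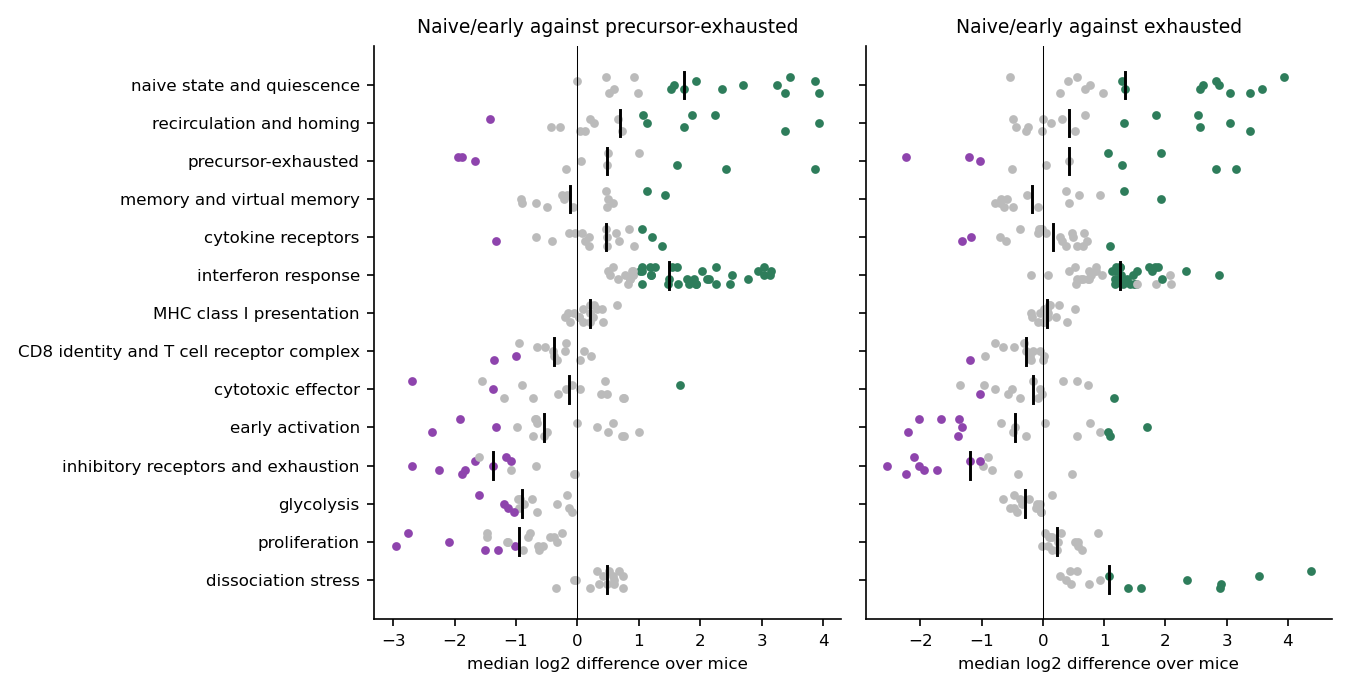
Each point is 1 gene, placed by its median log2 difference over mice (x axis) between the annotated cells and precursor-exhausted (left) or exhausted (right) CD8 cells, in rows by gene list. Green points are higher and purple points lower by the 2-fold rule in every mouse, grey points neither, and black bars are list medians. The naive state and interferon rows lie to the right of 0 and the inhibitory receptor row to the left.

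T cell receptor beta variable genes were more evenly used in the annotated cells. A cell was assigned when 1 Trbv gene led its UMIs, which held for 64.7 to 74.7% of the annotated cells per mouse and for 86.6 to 94.4% of precursor-exhausted cells. The effective number of Trbv genes (the number of equally used genes that would give the same diversity) was 17.4, 13.9, 13.1 and 15.5 in KO mice and 10.3, 15.7 and 14.1 in WT mice. It was 2.97 to 9.74 in precursor-exhausted cells and 2.72 to 10.4 in exhausted cells, and in 6 of 6 mice with all 3 annotations the annotated cells had the highest value. The leading gene took 12.5 to 25.9% of assigned annotated cells. In KO mouse 4, Trbv26 took 54.7% of precursor-exhausted and 50.4% of exhausted cells, and in WT mouse 3, Trbv15 took 49.6 and 58.1%. The leading gene was the same in precursor-exhausted and exhausted cells in 5 of 6 mice and the same in annotated and precursor-exhausted cells in 1 of 6. The annotated cells were fewer than the precursor-exhausted cells in 5 of 7 mice, and variable genes, unlike full receptor sequences, do not identify clones. Cells were not thinned for this count, and the annotated cells had the fewest UMIs per cell. It was not repeated in cells with Cd8 only, so the part of depth and of cells without Cd8 UMIs was not tested.

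**Figure D4:**
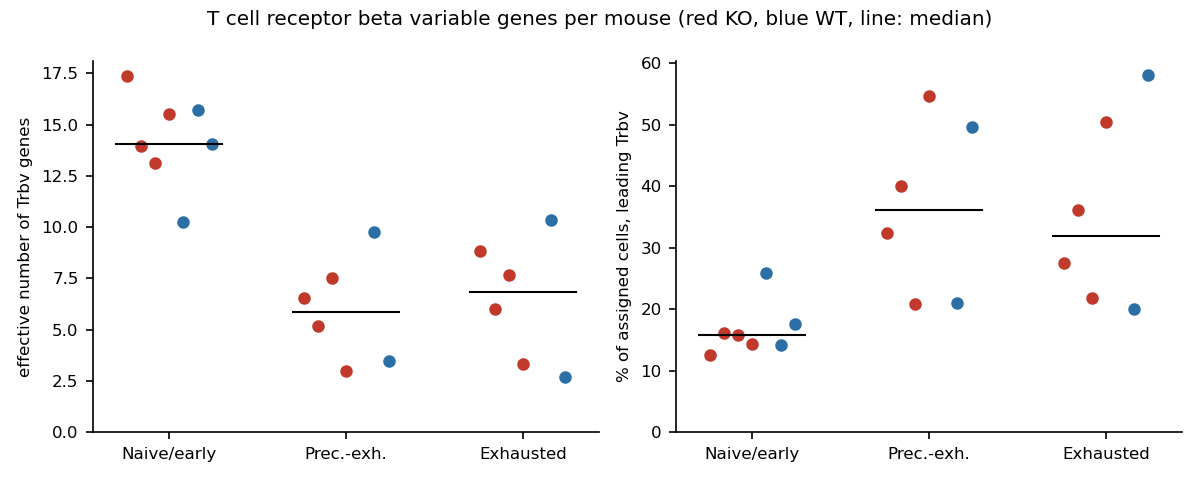
Left, the effective number of Trbv genes per mouse (y axis, from 0) in the 3 CD8 annotations (x axis). Right, the percentage of assigned cells with the leading Trbv gene. Red points are KO mice, blue WT, and lines are medians. The annotated cells lie between 10.3 and 17.4 effective genes, and the other annotations between 2.72 and 10.4.

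The genotype comparison asked whether loss of Siglece in microglia was accompanied by changes in these T cells, which are not the cells that the Cre driver marks. UMIs were summed per mouse and tested with the quasi-likelihood test of edgeR over 8359 genes. With 4 and 3 mice, 2 genes fell in KO mice (0.0239%) and 0 rose (0%) at an adjusted p under 0.05. At an unadjusted p under 0.05 there were 228 lower and 188 higher genes, and DESeq2 called 7 lower and 4 higher. Both genes that fell are interferon-induced.

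Iigp1, an interferon-inducible GTPase that attacks the vacuoles of intracellular parasites, was at 14.9, 13.6, 18.2 and 14.2 CPM in KO mice 1 to 4 and at 45.0, 56.8 and 52.8 CPM in WT mice 1 to 3. The groups did not overlap, on 7 to 20 UMIs per KO mouse and 14 to 59 per WT mouse. Its log2 change was -1.77 (SE 0.27, edgeR adjusted p = 0.00607). Ifit1 was at 61.7, 78.6, 126 and 88.2 CPM in KO mice and 277, 201 and 174 CPM in WT mice, also without overlap. Its log2 change was -1.25 (SE 0.22, edgeR adjusted p = 0.0355). The Ifit1 call was lost without KO mouse 2 (adjusted p = 0.243), WT mouse 1 (0.240) or WT mouse 2 (0.123), and with Cd8-positive, Cd4-negative cells alone (log2 change -1.05, adjusted p = 0.306). The Iigp1 call was lost without WT mouse 2 (0.123) and with equal cells per mouse (0.0624), and with Cd8-positive cells alone it had too few UMIs to be tested. Leaving out cells with other-lineage UMIs removed 82.2% of the annotated cells, and neither gene passed in the rest (adjusted p = 0.970 for both). The fitted changes themselves ran from -2.44 to -1.67 for Iigp1 and from -1.80 to -0.82 for Ifit1 over the alternatives.

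The next genes by p among those without overlap did not pass in edgeR, although DESeq2 called Isg15 (adjusted p = 0.0218), Bst2 and Gstp3 (0.0436 for both). Isg15 was at 223, 272, 374 and 337 CPM in KO mice and 643, 594 and 441 CPM in WT mice (log2 change -0.88, SE 0.18, edgeR adjusted p = 0.105). Oasl2, of the oligoadenylate synthetase-like family, was at 14.9, 18.9, 14.6 and 27.0 CPM and at 61.1, 49.1 and 44.9 CPM (-1.36, adjusted p = 0.105), and the gene model AW011738 changed by -1.45 (adjusted p = 0.111). Further interferon genes without overlap were Bst2, which tethers budding virions (-0.74, adjusted p = 0.123), Usp18, which removes Isg15 from proteins (-0.98, adjusted p = 0.123), and Slfn5 (-1.04, adjusted p = 0.134). In the other direction stood Trav15-2-dv6-2, a receptor variable segment with 3, 27, 24 and 15 UMIs in KO mice and 0, 0 and 1 in WT mice. This segment passed the filter on low counts only through the KO mice, where it is high, so its p is no support for a difference. It was followed by Rbl2, a retinoblastoma-like cell cycle repressor (0.85, adjusted p = 0.165), Gorasp2 of the Golgi (1.09, 0.196), the glutathione transferase Gstp3 (1.28, 0.273) and the kinase activator Mob2 (0.91, 0.397).

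Type I interferon acts on such genes through the interferon-stimulated response element, read here as the letters GAAANNGAAA on either strand (TTTCNNTTTC on the other). Promoter windows from 250 bases before to 50 after the transcription start were taken from RefSeq (build GRCm38.p6), which held 31 of the 43 list members. The letters occurred in 20 of these 31 (64.5%), in 280 of 6437 tested genes with a window (4.35%) and in 3.44% of all windows. The stretches before the start that hold them are shown for Ifit1, Isg15, Bst2 and Slfn5, to show the shared letters. Of the list, only these and Oasl2, Oasl1 and Usp18 were looked up one by one. Capitals mark every match, which can overlap, and each is written 5′ to 3′ on the strand of the gene. They lie at chr19:34640779-34640838 (plus strand), chr4:156200850-156200909 (minus), chr8:71537562-71537621 (minus) and chr11:82951922-82951981 (plus).
Ifit1: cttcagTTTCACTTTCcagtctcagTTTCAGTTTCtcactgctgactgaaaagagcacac
Isg15: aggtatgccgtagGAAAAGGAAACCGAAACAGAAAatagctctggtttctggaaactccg
Bst2: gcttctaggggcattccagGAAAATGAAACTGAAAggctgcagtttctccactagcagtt
Slfn5: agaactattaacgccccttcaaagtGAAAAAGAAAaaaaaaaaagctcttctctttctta
The match nearest the start begins 85 bases before it in Ifit1, 66 in Isg15, 124 in Bst2 and 155 in Slfn5. The windows of Oasl2 and Oasl1 held no match before the start, and Usp18 had no window. Iigp1 was not looked up in this way, so whether it has a match is not given. A match describes the sequence and shows no binding. The list was made of interferon-response genes, so a share above that of all genes could be foreseen and is no result on genotype. Members lower in KO mice without overlap had the letters in 10 of 15 with a window (66.7%), near the share of the whole list.

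As a list, 42 of the 43 interferon members had a lower fitted level in KO mice, where 49.6% of all genes did, and the exception was Dhx58 (0.033). The median change was -0.54, against 0.0036 over all genes. The groups did not overlap, with KO lower, in 19 members (44.2%), where the share over all genes was 3.28%. At an unadjusted p under 0.05 there were 25 members, where 416 of all 8359 genes were. The adjusted threshold was passed by 2 members in edgeR (0.0239% of all genes) and by 4 in DESeq2, where 11 of 7058 genes passed. With Cd8-positive, Cd4-negative cells alone the median was -0.35. Reads of Gbp6, Ifit3, Ifit3b, Ifi203 and Oas1a can be shared with close copies. The list was already known to be lower in KO T cells of these data, so the direction is no independent evidence.

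Counted per thinned cell, the 43 genes together gave means of 11.1, 10.3, 15.8 and 12.0 UMIs in KO mice and 17.4, 18.3 and 16.9 in WT mice. Every KO mouse lay below every WT mouse, with KO mouse 3 nearest (12.3 ± 2.46, n = 4, against 17.5 ± 0.696, n = 3, exact permutation test over 35 splits, two-sided p = 0.0571). The smallest p this design can give is 0.0286. That value was reached by the median cell, at 7, 7, 8.5 and 7 UMIs against 11, 12 and 10.5. Cells with 10 or more interferon UMIs made up 37.3 ± 7.27% in KO mice and 54.7 ± 3.12% in WT mice (exact permutation p = 0.0571). None of the 5 measures tested passed after adjustment (0.0952 at the lowest). The 90th percentile was at 31.5 ± 5.94 against 44.3 ± 3.79 UMIs, with overlap (exact permutation p = 0.0857).

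The direction was the same within both large co-receptor categories. Cells with Cd8 only had 13.2 ± 2.05 interferon UMIs in KO mice and 16.7 ± 0.479 in WT mice, without overlap. Cells with neither had 9.37 ± 3.38 and 15.4 ± 0.937, and there KO mouse 3 and WT mouse 3 were level at 14.3. Pooled over mice of both genotypes, cells with Cd4 only had higher interferon levels than cells with Cd8 only. Isg15 was at 869 against 393 CPM, Ifit1 at 351 against 112 CPM and Iigp1 at 85.6 against 25.1 CPM. Only 4 mice had enough cells with Cd4 only for a value by mouse, and the ranges overlapped. Isg15 ran from 421 to 1357 against 256 to 590 CPM, Ifit1 from 174 to 471 against 48.1 to 180, and Iigp1 from 0 to 171 against 7.41 to 74.6. The pooled values do not separate category from genotype. Cells with Cd4 only made up 6.50 ± 2.55% in KO and 11.3 ± 1.97% in WT mice, with overlap. The part of this category in the genotype difference was not tested. The 9 myeloid markers summed to 1348, 2433, 878 and 1714 CPM in KO mice and 2139, 1753 and 2047 in WT mice. KO mouse 2 was the highest and KO mouse 3 the lowest, and the groups overlapped. By fitted change, 7 of 9 myeloid markers were lower in KO mice (median -0.38), as were 3 of 3 CD4 markers (-0.92), where 49.6% of all genes were. The 3 NK and 2 gamma-delta markers tested were higher (medians 0.70 and 0.59). None of these markers was called. Lyz2, a lysozyme gene of macrophages, stood in the annotated cells at 3.74% of its level in the P5 macrophage annotation, while Isg15 stood at 136% and Ifit1 at 270%. Usp18 stood at 229%, Slfn5 at 99.0%, Iigp1 at 52.7%, Bst2 at 45.0% and Oasl2 at 31.9%. Other myeloid annotations had more Isg15 than the annotated cells (412 CPM). These were monocytes (P1-P2) at 955 CPM, the cDC2 dendritic cells at 523 and monocyte-derived dendritic cells at 430. The remaining myeloid annotations had less, with P3 macrophages nearest at 405 CPM. The plasmacytoid dendritic marker list moved with the genotype (228 to 339 against 457 to 498 CPM). It holds Bst2, an interferon gene, at 223 to 330 and 454 to 495 CPM. The part of these markers in the interferon difference was not tested.

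The mean of the list was lower in KO mice in the other cells measured as well. Precursor-exhausted cells had 5.98 ± 0.50 interferon UMIs per thinned cell in KO and 7.34 ± 1.00 in WT mice, and naive or early-activation CD4 cells had 8.06 ± 1.17 and 10.4 ± 0.107, without overlap in either. Summed as CPM, however, precursor-exhausted cells overlapped, with WT mouse 1 (21 cells) at 2914 CPM and KO mice at 2603 to 3129 CPM. P5 macrophages had 9.82 ± 1.70 and 12.8 ± 1.58 UMIs, exhausted cells 7.46 ± 2.11 and 9.94 ± 1.85 (n = 2), and B cells 5.89 ± 1.75 (n = 3) and 7.50 ± 1.72 (n = 2), all with overlap. In precursor-exhausted cells 35 of 41 members were lower in KO mice (46.1% of all genes were), with a median of -0.24, and in exhausted cells 29 of 36 (48.8%), with a median of -0.22. No list member passed in either: precursor-exhausted cells had 0 calls by edgeR among 10825 genes (0%), 415 of which had an unadjusted p below 0.05, and exhausted cells 1 call among 7403 (0.0135%), the gene model Gm6969. The fitted Iigp1 change in precursor-exhausted cells was 0.081. The test of whether the genotype effect differed between the annotated and the precursor-exhausted cells passed for 0 of 9296 genes (0%) by edgeR, and 391 had an unadjusted p below 0.05. All 43 interferon members had an adjusted p of 1.00. Of these, 38 had a difference below 0, that is a lower fitted KO effect in the annotated cells. The median of the 43 members was -0.18, against 0.0033 over all genes, and the share of all genes below 0 was not counted. A difference between the annotations in this effect was therefore not shown.

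**Figure D5:**
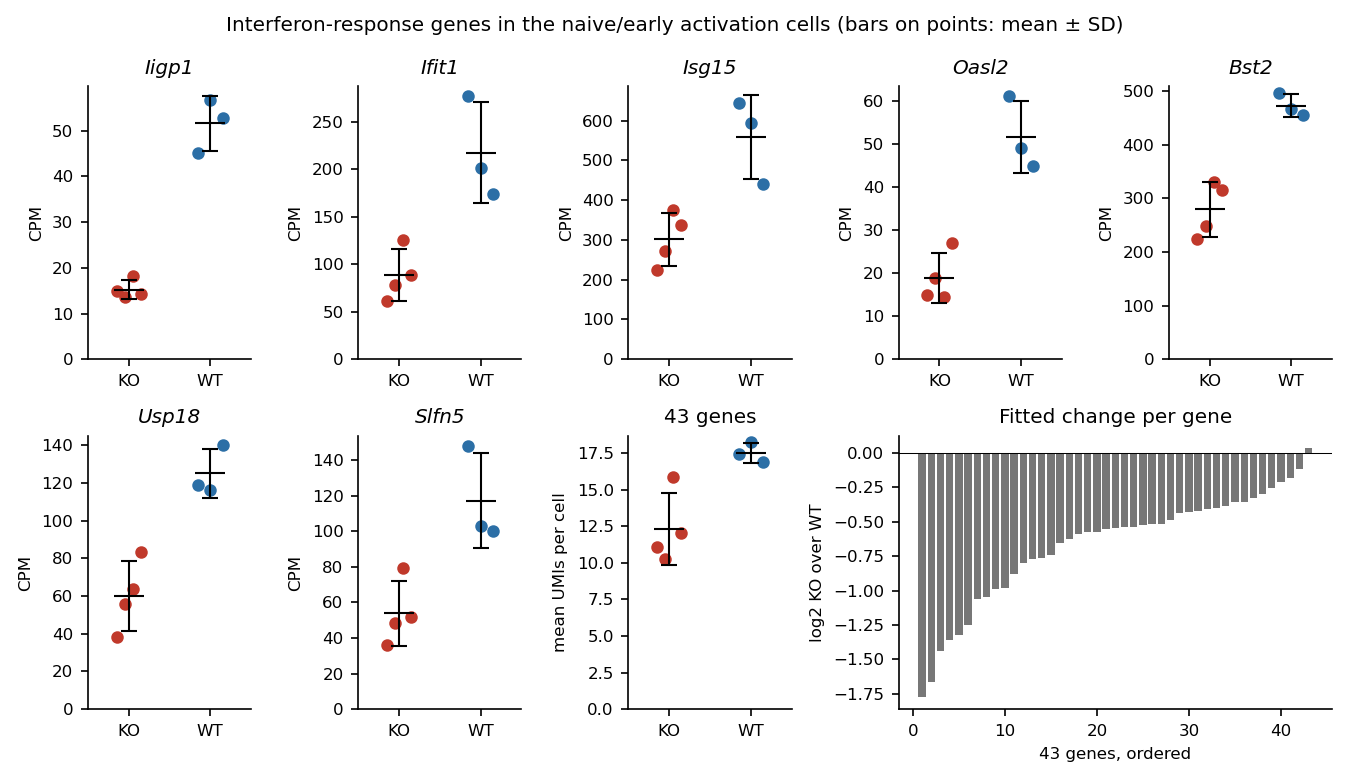
CPM (y axes, from 0) of 7 interferon-response genes in the annotated cells of each KO (red) and WT (blue) mouse, the mean UMIs of all 43 genes per cell thinned to 2000 UMIs, and the fitted log2 change of each of the 43 genes in order. Black marks are mean ± SD, n = 4 and 3. The KO points lie below the WT points in each of the 8 point plots, and 42 of the 43 bars are below 0.

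The 8 interferon-gamma GTPase genes are all among the 43 interferon members and add no further evidence: 8 had a lower fitted level (49.6% of all genes did), 6 without overlap (3.28%), and Iigp1 was the 1 call (0.0239%). The remaining lists had no member called by edgeR. Of 13 inhibitory receptor and exhaustion genes 12 had a higher fitted level in KO mice (4215 of all 8359 genes did), with a median of 0.35. However, 0 of them were without overlap (3.49% of all genes were higher without overlap). Pdcd1 was at 268, 220, 412 and 200 CPM in KO mice and 129, 106 and 206 CPM in WT mice (log2 change 0.94, SE 0.29, edgeR adjusted p = 0.865), with overlap. Of 17 naive genes 14 had a lower fitted level (49.6% of all genes did), with a median of -0.23. Lef1 changed by -0.14 (SE 0.25), Ccr7 by -0.80 (SE 0.75) and Cd8a by 0.36 (SE 0.17), with overlapping groups. The sign for Lef1 turned when KO mouse 3 or WT mouse 1 was left out. With 1 mouse left out, Ccr7 ran from -1.26 to -0.24 and Cd8a from 0.21 to 0.43.

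As a share of all CD8 annotations, the annotated cells made up 27.2, 18.5, 8.75 and 16.7% in KO mice and 65.1, 57.0 and 13.3% in WT mice. WT mice 1 and 2 lay above all others and WT mouse 3 within the KO range (17.8 ± 7.57% against 45.1 ± 27.9%, exact permutation test, two-sided p = 0.171, adjusted over 4 denominators 0.229). As a share of all T cells they made up 10.8 ± 3.05% and 17.7 ± 9.32%. As a share of all cells the order turned, 5.99 ± 0.412% in KO and 3.91 ± 2.19% in WT mice (exact permutation p = 0.143). No denominator gave a difference beyond the spread between mice. By the deposited cell cycle phase, 30.6 ± 4.92% of the annotated cells of KO mice and 32.8 ± 6.06% of WT mice were in S or G2M (exact permutation p = 0.600), while their Mki67 and Birc5 levels were lower than in precursor-exhausted cells, 2.76 ± 1.59 against 27.1 ± 19.1 TMM-scaled CPM for Birc5.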

How the data were processed

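Values are expected counts: UMIs per gene and cell, deposited by the authors unscaled, with 7.50% of non-zero values not whole. FastQC 0.11.5, STAR 2.7.10a, STARsolo and the build mm10 are named, without roles, per the submitters' processing notes. Detected genes per cell are deposited counts, and mitochondrial and ribosomal content is deposited as percent, per the file headers. Filters on cells, doublet handling and the annotation method are not given in the sources used here, and no doublet caller was run.

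UMIs were summed per mouse and annotation (at least 20 cells), rounded to whole numbers and tested with edgeR 4.0.16 (TMM, filterByExpr, robust quasi-likelihood, genotype term, Benjamini-Hochberg adjustment over all genes). The SE given with an edgeR change was derived, as the absolute log2 change divided by the square root of the F statistic of that test. DESeq2 1.42.0 was an alternative. Log2 differences between annotations used TMM-scaled CPM with a prior count of 2 and genes with a mean of 10 CPM or more in either annotation. The scripts were tested on simulated data. Shares and per-cell sums were compared by exact permutation over mice. All p-values take the mouse as the unit of replication.

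The members, gene lists and tests were chosen with earlier results of these data known. Named genes are the called ones without overlap between genotypes or, where fewer than 5 were called in a direction, the 5 with the lowest p without overlap, the 10 largest called differences per direction between annotations (without receptor segments, mitochondrial genes and gene models), and list members. Genes named by co-receptor category, and the ranks of interferon genes, were picked after their values were seen, as was the alternative with Cd8-positive, Cd4-negative cells. One gene that the rule names is not reported here.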

Additional observations from a re-analysis of the deposited data

Results flagged for a closer look

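Among the KO mice, KO mouse 3 stood apart in Cd8a, at 568 CPM in the annotated cells where the other KO mice had 372, 386 and 390 CPM. Its gap to the nearest mouse exceeded the limit for a group of 4. About 1 in 20 such groups would be flagged by chance. The same mouse had the largest share of cells with Cd8 only (63.8%) and the smallest share with a Ly49 UMI (7.50%).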

How the results depend on the processing

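The genotype counts depended on the setting, and the causes were not tested. Against 2 lower and 0 higher genes, DESeq2 gave 7 and 4, no filter on low counts 31 and 13, and Cd8-positive, Cd4-negative cells alone 0 and 0. Leaving out cells with 2 or more UMIs of other-lineage markers gave 0 and 0, but removed 82.2% of the annotated cells. With a replicate block over replicates 1 to 3 the counts were 7 and 6, and the adjusted p of Ifit1 was 0.106. Same-numbered KO and WT mice correlated at 0.027, 0.042 and -0.13, which shows no pairing by number. Low counts and few mice weaken such correlations, so they cannot exclude shared handling. The block changed the counts with fewer mice and genes. Without each mouse in turn there were 1 to 7 lower and 0 to 3 higher genes. The interferon median stayed between -0.69 and -0.35 over 19 alternatives. The annotation-by-genotype count was 14 with no filter and 0 to 4 without each mouse.

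Against precursor-exhausted cells, a 4-fold limit left 64 higher and 32 lower genes, and leaving out cells with other-lineage UMIs gave 427 lower. Against exhausted cells these were 61, 23 and 535. Of the called genes 56.0% and 65.1% were higher, with Cd8-positive, Cd4-negative cells 42.3% and 49.7%, and without cells with other-lineage UMIs 29.5% and 38.9% (179 and 340 higher genes). The share difference of -27.3 percentage points became 2.08 with all cells as denominator and -43.2 (without WT mouse 3) to -17.3 (without WT mouse 1) with 1 mouse left out. The difference in S or G2M share was -5.03 to 1.02 points without each mouse, being 1.02 without WT mouse 1, and that in interferon UMIs -6.39 to -4.53. Signs turned for Lef1 without KO mouse 3 (0.046) or WT mouse 1, within -0.34 to 0.046 over all mice left out, and for Tcf7 with equal cells per mouse (0.027). Shallow libraries of 82 to 99 annotated cells limit what low genes can show.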
